A study of Mus musculus with 9 samples.

Results

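The 10 genes described here encode one intracellular relay and its brakes in mouse neutrophils: the Janus kinases Jak1 and Jak2, the transcription factors Stat3, Stat5a, Stat5b and Stat6, the inhibitors Socs1, Socs3 and Cish, and the kinase Pim1. They were taken by gene symbol from the 24532 genes of the deposited series table, and all 10 were among the 13510 genes with enough counts to be tested. Neutrophils, the short-lived granulocytes of innate immunity, had been sorted from the bone marrow, peripheral blood and lung of C57BL/6 mice that the labels call wild type, with 3 biological replicates of each tissue and 9 polyA RNA libraries in all. All 3 groups share strain and genotype, the labels give no treatment, and the sources used here do not name the surface markers of the sort gate. The comparison asks how the relay's transcripts differ between neutrophils of the tissue in which they are made, of the circulation and of the lung.

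Cytokine receptors of this class have no kinase of their own and carry Janus kinases, which phosphorylate the receptor and then the STAT proteins that dock on it. Phosphorylated STATs pair, enter the nucleus and switch on genes, among them the SOCS family genes, whose proteins bind receptor or kinase and shut the signal down, and Pim1, a kinase that supports survival. In neutrophils the relay is best known downstream of G-CSF, through Stat3 and Socs3, and of GM-CSF and related cytokines, through Stat5, Cish and Pim1. Transcript levels of a SOCS gene are often read as a trace of recent signalling, but no protein or phosphorylation was measured here.

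A STAT dimer binds a short palindrome, TTCNNNGAA (N is any base), and a variant of it with one more spacer base. Both were searched on both strands in the 250 bases before each start listed for these genes by RefSeq on the build GRCm38.p6, which gave 13 windows for the 10 genes. Only the Socs3 window held a match, TTCTTAGAA, which begins 154 bases before the start, and no window held the longer variant. Some windows overlap annotated exons of the gene. Only 107 bases at the upstream Stat5b start and 111 at the second Stat5a start lie outside them. No stretch outside exons was recorded for Cish or the first Stat5a start. Sites further upstream were not searched for. Among all 32851 RefSeq windows of the same length, 7.02% held the first motif and 5.85% the second, so a single match among 13 windows is close to the general rate. The Socs3 stretch is shown because Socs3 had the largest difference between blood and bone marrow among the 10 genes, and the motif is in capitals. Both Stat5b stretches are shown because the table splits that gene between 2 start sites whose shares differed between the libraries, and they hold no match. Each is written 5′ to 3′ on the minus strand and is trimmed to the part outside annotated exons.
Socs3, chr11:117969452-117969616: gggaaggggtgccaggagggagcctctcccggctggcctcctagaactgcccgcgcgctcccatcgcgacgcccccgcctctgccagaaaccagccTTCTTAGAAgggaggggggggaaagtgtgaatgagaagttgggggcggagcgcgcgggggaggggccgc
Stat5b upstream start, chr11:100850725-100850831: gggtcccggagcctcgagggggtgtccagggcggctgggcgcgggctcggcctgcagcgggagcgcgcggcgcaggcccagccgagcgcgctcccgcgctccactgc
Stat5b internal start, chr11:100822571-100822820: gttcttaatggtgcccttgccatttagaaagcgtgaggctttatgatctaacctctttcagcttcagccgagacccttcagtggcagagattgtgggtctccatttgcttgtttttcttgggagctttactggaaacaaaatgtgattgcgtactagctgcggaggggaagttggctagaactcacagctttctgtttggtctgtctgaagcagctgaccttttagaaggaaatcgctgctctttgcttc

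The same chromosome carries 4 of the 10 genes, and 3 of them are close neighbours. Stat5b (chr11:100780731-100850585), Stat5a (chr11:100859351-100885169) and Stat3 (chr11:100886806-100939540) fill 158810 bases in mm10. A gap of 8765 bases separates Stat5b from Stat5a, and 1636 bases separate Stat5a from Stat3.

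The libraries held 42045548 to 56796219 counts each in the series table, and the RSEM totals of blood and lung were 22196650 to 27061368. Defining neutrophil markers together were abundant in all 9. Levels are in CPM, counts scaled to library size, after edgeR's TMM factors. The markers summed to 84560 to 123140 CPM in bone marrow, 31385 to 45510 in blood and 23429 to 43808 in lung. None of the 10 was at 0. In blood against bone marrow 5 passed as lower and 1 as higher (13.1% and 8.34% of all genes). In lung against bone marrow 8 passed as lower and 0 as higher (22.6% and 15.6% of all genes). Ly6g alone stood at 418 to 678 CPM in bone marrow, 21.2 to 24.8 in blood and 15.4 to 27.0 in lung. Csf3r went the other way in blood, at 11325 to 15905 CPM against 4394 to 5388 in bone marrow. Lung replicates 1 and 2 stood apart from lung replicate 3. They had 1564 and 1338 CPM of 8 fibroblast and smooth muscle markers against 164 in replicate 3, and 899 and 280 CPM of 8 lung epithelial markers against 76.2. In bone marrow these sums ranged over 121 to 270 and 13.8 to 90.5 CPM. Both upper ends were bone marrow replicate 3, in which Sftpc stood at 36.3 CPM against 0.0477 and 0 in replicates 1 and 2. In blood the sums ranged over 53.3 to 95.1 and 21.0 to 37.1 CPM, and Sftpd and Cldn18 were at 0. In lung against blood, 7 of the 8 genes of each list passed the test as higher in lung, against 13.2% of all genes. MHC class II and dendritic markers summed to 70.4 to 158 CPM in bone marrow, where Xcr1 was at 0, to 178 to 1214 in blood and to 673 to 2650 in lung, lowest in replicate 3 of blood and of lung. Those 2 libraries were also lowest in B cell markers, at 84.9 against 455 and 465 CPM in blood and 59.8 against 443 and 494 CPM in lung. Erythroid markers were lowest in replicate 3 of every tissue. They summed to 8424, 9135 and 1063 CPM in bone marrow, 8707, 5986 and 514 in blood and 274, 217 and 32.9 in lung. T and NK cell markers were also lowest there, at 89.3, 97.6 and 34.8, 41.0, 104 and 18.5, and 111, 121 and 18.0 CPM. Platelet markers were highest in bone marrow replicate 3, at 86.9 against 18.3 and 17.8 CPM. Monocyte and macrophage markers summed to 1880 to 2590, 1917 to 2470 and 3327 to 4178 CPM in the 3 tissues. Lung replicate 3, at 3771, lay inside the lung range, but Nr4a1 alone gave 3001 CPM of that sum. Among the lung libraries, Marco, Mrc1, C1qa, C1qb, Ccr2, Cx3cr1, Ace and Chil3 were lowest in replicate 3. Nr4a1, Csf1r, Adgre1 and Siglecf were highest there. The sum therefore does not show that the content of these cells was alike in the lung libraries. In bulk RNA of sorted cells, fewer cells of a type and less RNA per cell cannot be told apart.

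Of the 10 genes, 7 differed among the 3 tissues in edgeR's quasi-likelihood test at an adjusted p under 0.05 (Benjamini-Hochberg over all genes tested), the threshold used throughout, against 46.1% of all genes tested. Jak1, Stat6 and Socs1 did not pass. In blood against bone marrow 2 of the 10 passed, Socs3 higher and Cish lower, against 21.4% of all genes, and their median log2 fold change was 0.28 against -0.05 over all genes. In lung against blood 6 passed, 3 higher and 3 lower, against 28.9% of all genes (medians -0.23 and 0.05). In lung against bone marrow 7 passed, 5 higher and 2 lower, against 38.2% (medians 0.46 and 0.06). The replicates of both tissues did not overlap for 3, 6 and 7 of the genes in these comparisons, against 45.4%, 41.6% and 49.0% of all genes. The first count lies near its background, and the lung counts lie above theirs by a margin that rests on 10 genes. These genes were chosen with earlier results of these data known, so the margin is a description and no test. The same holds for the counts of every gene list given further on. The 3 comparisons share libraries in pairs and are not independent of each other.

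**Figure D1:**
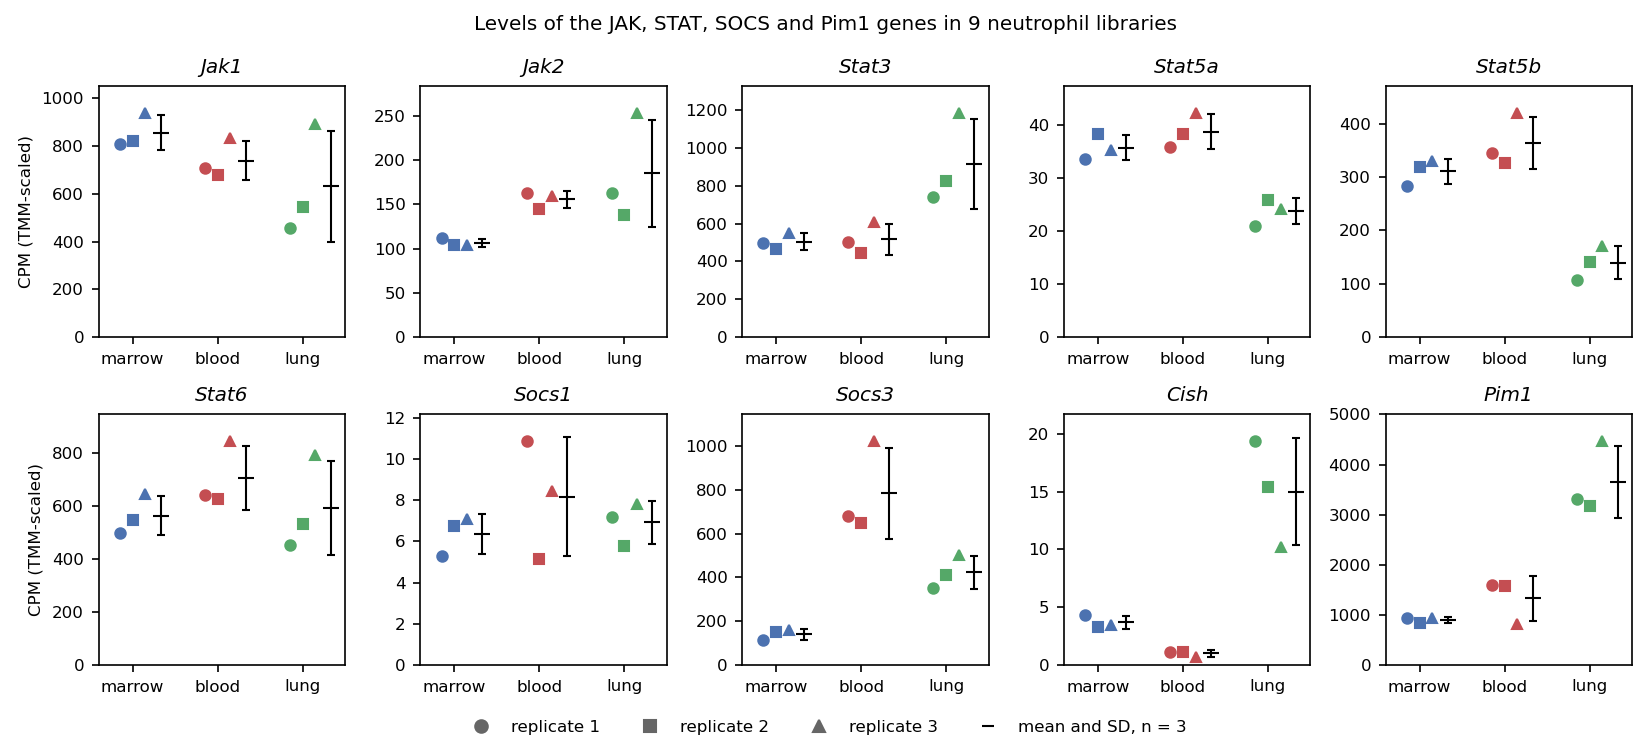
Level of each of the 10 genes (CPM, linear axes that start at 0 and differ between panels) in the 3 libraries of each tissue, with the mean and SD beside them (n = 3). Socs3 is highest in blood, Cish, Pim1 and Stat3 are highest in lung, Stat5a and Stat5b are lowest in lung, and Jak1, Stat6 and Socs1 overlap between lung and both other tissues.

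**Figure D2:**
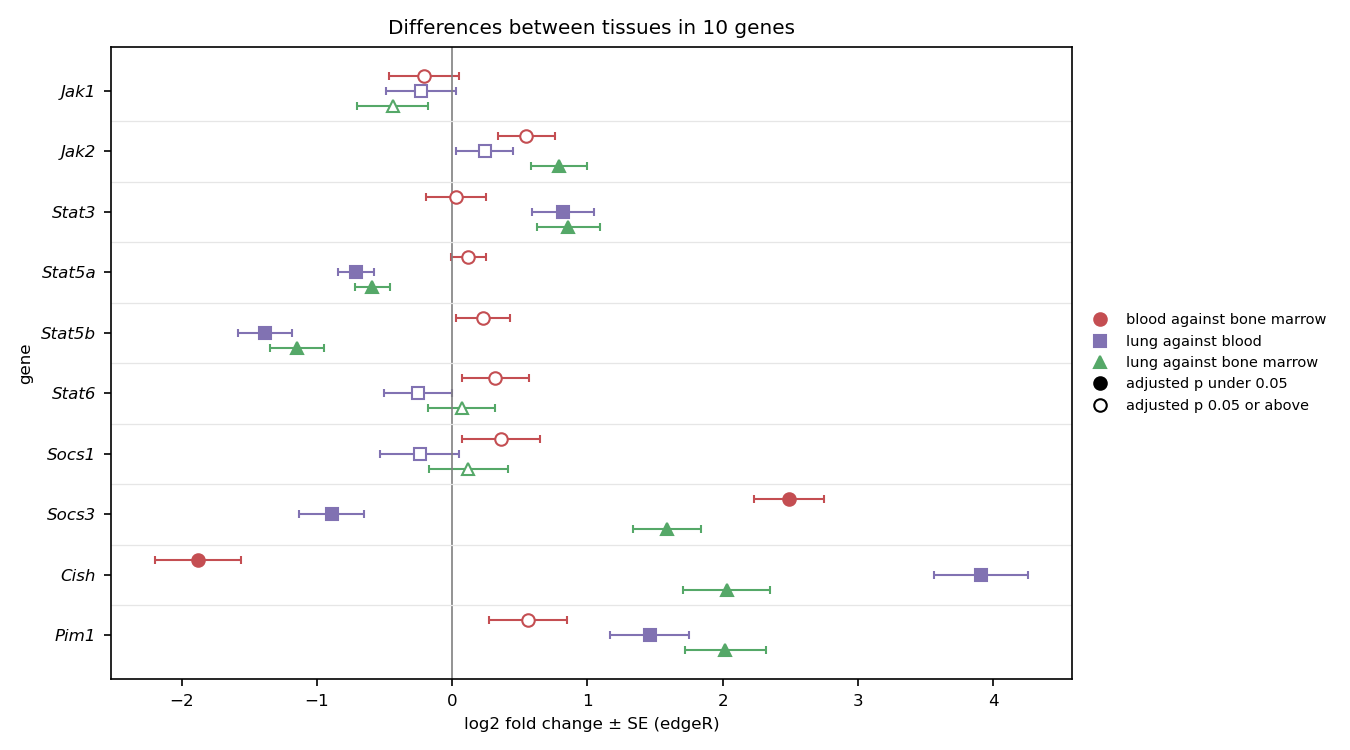
Log2 fold change with its SE for each gene in the 3 comparisons, filled where the adjusted p was under 0.05. The widest spread belongs to Cish, from -1.88 in blood against bone marrow to 3.91 in lung against blood.

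Of the Janus kinases Jak2 passed in 1 comparison and Jak1 in none. Jak1 (chr4:101151974-101265282), the kinase shared by interferon, IL-6 family and common gamma chain receptors, stood at 807, 823 and 939 CPM in bone marrow, 707, 678 and 834 in blood and 457, 543 and 893 in lung. Its lung libraries spread widest, with replicate 3 inside the bone marrow range and replicates 1 and 2 below every other library. The log2 fold change was -0.21 ± 0.26 (SE) in blood against bone marrow, -0.23 ± 0.26 in lung against blood and -0.44 ± 0.26 in lung against bone marrow, with edgeR adjusted p of 0.62, 0.556 and 0.208. These estimates leave room for differences from -0.95 to 0.07 in lung against bone marrow (95% interval). Without lung replicate 3, Jak1 passed as lower in lung, at -0.60 against blood (adjusted p = 0.0299) and -0.82 against bone marrow (adjusted p = 0.00771), and with that library as the only one of lung the signs turned, to 0.45 and 0.33. In FPKM no tissues overlapped, and limma on log2(FPKM + 0.1) called Jak1 lower in lung than in blood (-0.42, adjusted p = 0.0217).

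Jak2 (chr19:29251803-29313080), which serves the receptors of GM-CSF, IL-3, erythropoietin and growth hormone, stood at 112, 104 and 104 CPM in bone marrow, 163, 145 and 159 in blood and 163, 138 and 253 in lung. Every blood and lung library lay above every bone marrow library, and blood and lung overlapped. It was higher in lung than in bone marrow by a log2 fold change of 0.79 ± 0.21, or 1.73-fold (adjusted p = 0.0182). In blood against bone marrow the value was 0.55 ± 0.21, which did not pass (adjusted p = 0.102), and in lung against blood 0.24 ± 0.21 (adjusted p = 0.44). The lung call was lost without any 1 bone marrow library (adjusted p of 0.0605, 0.0854 and 0.0703) and without blood replicate 1 or 2 (0.056 and 0.0522), and without lung replicate 3 it held at 0.46 (adjusted p = 0.0174). The blood value passed at the same size, 0.55, without lung replicate 3 (adjusted p = 0.00912). With limma on log2(FPKM + 0.1) it passed at 0.91 (adjusted p = 0.00134).

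Stat3, the factor through which G-CSF, IL-6 and IL-10 signal, was, of the 4 STAT genes among the 10, the one that passed as higher in lung. Its level was 500, 464 and 552 CPM in bone marrow, 501, 446 and 606 in blood and 739, 825 and 1185 in lung. All lung libraries lay above all others, replicate 3 highest, and the bone marrow and blood libraries interleaved on this scale. The log2 fold change was 0.82 ± 0.23 in lung against blood, or 1.77-fold (adjusted p = 0.0241), 0.86 ± 0.23 in lung against bone marrow (adjusted p = 0.0163) and 0.03 ± 0.22 in blood against bone marrow (adjusted p = 0.938). Without lung replicate 3 the lung values were 0.56 (adjusted p = 0.0372) and 0.59 (adjusted p = 0.0273). The call against blood was lost without blood replicate 1, 2 or 3 (adjusted p of 0.161, 0.181 and 0.0849) and without bone marrow replicate 1 or 2 (0.0525 and 0.0543), and that against bone marrow without bone marrow replicate 1 or 2 (0.0722 and 0.0942) or blood replicate 1 (0.0528). On RSEM counts the value against blood was 0.79 (adjusted p = 0.0805). In FPKM every blood library (116 to 136) lay above every bone marrow library (90.0 to 101). With limma on log2(FPKM + 0.1) Stat3 passed in blood against bone marrow at 0.39 (adjusted p = 0.0217).

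The table splits Stat3 over 3 transcripts whose lengths differ by at most 50 bases. Their shares of the gene's FPKM (fragments per kilobase of transcript, scaled to the library by the authors) were 25.5%, 46.3% and 28.2% in bone marrow and 24.8%, 47.9% and 27.3% in blood, and those listed before the last took 22.8% and 52.3% in lung. The SD over 3 libraries was at most 4.55 percentage points for any of these shares. The second transcript led in every library, and the shares were not tested.

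Both Stat5 genes were lower in lung. Stat5a and Stat5b encode closely similar proteins that act downstream of GM-CSF, IL-3, erythropoietin and growth hormone. Stat5b stood at 283, 319 and 329 CPM in bone marrow, 344, 327 and 420 in blood and 108, 140 and 170 in lung. The lung libraries lay below all others without overlap, replicate 3 nearest to the rest. Stat5b was 2.60-fold lower in lung than in blood (log2 fold change -1.38 ± 0.20, adjusted p = 0.00172) and 2.22-fold lower than in bone marrow (-1.15 ± 0.20, adjusted p = 0.00213). Blood against bone marrow gave 0.23 ± 0.20 (adjusted p = 0.465). In FPKM every blood library (71.2 to 83.0) lay above every bone marrow library (50.1 to 55.9). With limma on log2(FPKM + 0.1) that comparison passed at 0.56 (adjusted p = 0.00709). Both lung calls held without any 1 library. With lung replicate 3 as the only lung library, Stat5b was -0.92 against blood (adjusted p = 0.0462) and -0.59 against bone marrow, which did not pass (adjusted p = 0.124).

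Stat5a was the scarcer of the pair. It stood at 33.6, 38.2 and 35.2 CPM in bone marrow, 35.7, 38.2 and 42.2 in blood and 21.0, 25.8 and 24.2 in lung. Again no lung library reached any library of the other tissues, while bone marrow and blood overlapped in CPM. In FPKM every blood library (9.73 to 12.2) lay above every bone marrow library (6.93 to 8.81). With limma on log2(FPKM + 0.1) that comparison did not pass (0.47, adjusted p = 0.101). The log2 fold change was -0.71 ± 0.13 in lung against blood (adjusted p = 0.00419), -0.59 ± 0.13 in lung against bone marrow (adjusted p = 0.00656) and 0.12 ± 0.13 in blood against bone marrow (adjusted p = 0.569). The call against blood was lost without blood replicate 3 (-0.62, adjusted p = 0.0576) and with lung replicate 3 as the only lung library (adjusted p = 0.13), and that against bone marrow without blood replicate 1 or 2 (adjusted p of 0.0586 and 0.064). In all, the call against bone marrow was lost in 9 of 20 alternatives, among them lung replicate 3 as the only lung library (-0.29, adjusted p = 0.33), DESeq2 size factors (0.0532), other filters (0.0575 and 0.059) and limma on log2(FPKM + 0.1) (-0.36, adjusted p = 0.173), and in FPKM the 2 tissues overlapped. It was also lost under upper-quartile scaling, where the median of all genes in lung against bone marrow moved from 0.06 to 0.38 and Stat5a stood at -0.28 (adjusted p = 0.0832).

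Per unit of transcript length the balance of the pair differed in lung. The log2 ratio of Stat5a to Stat5b FPKM was -2.67, -2.67 and -2.85 in bone marrow, -2.87, -2.68 and -2.89 in blood and -1.98, -2.02 and -2.40 in lung. Each lung library had relatively more Stat5a than any other library. The mean differed by 0.68 between lung and blood and by 0.59 between lung and bone marrow, with an exact two-sided permutation p of 0.1 in each case, the smallest that 3 against 3 libraries allow, and 0.15 after adjustment over the 3 comparisons. Blood and bone marrow differed by -0.08 (exact permutation p = 0.2, adjusted 0.2). The genes share long identical stretches, and how such reads were divided was not stated in the labels or headers. The series table held 1.61 to 1.83 times the RSEM counts of the separate blood and lung files for Stat5a, and 2.05 to 2.15 times for Stat5b. With RSEM values in TPM, which also divide by transcript length, the lung and blood ratios still did not overlap, and differed by 0.61.

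The table lists Stat5b from an upstream start and from a start 28015 bases further inside the gene. The internal-start transcript had an FPKM of 12.1, 12.1 and 6.44 in bone marrow, 26.7, 32.1 and 47.0 in blood and 4.46, 11.6 and 8.19 in lung. The upstream-start transcript had 39.3, 43.8 and 43.6 in bone marrow, 44.5, 45.8 and 36.0 in blood and 20.4, 19.1 and 17.6 in lung. Blood thus stood out from bone marrow in the internal-start transcript alone, whereas lung was below both tissues in the upstream-start transcript and overlapped bone marrow in the internal one. The internal start made up 19.3% ± 5.68 of Stat5b FPKM in bone marrow, 45.1% ± 10.1 in blood and 29.2% ± 10.2 in lung (SD, n = 3). The transcripts share most exons, so these shares are estimates from the reads that tell them apart, and they were not tested.

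**Figure D3:**
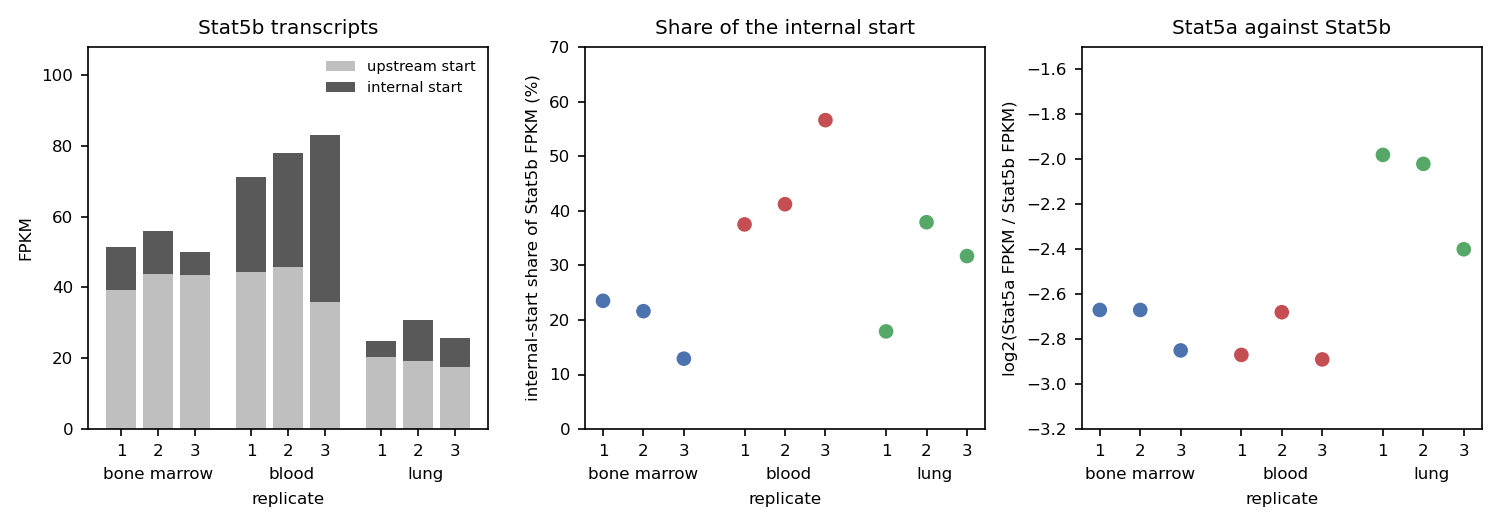
Left, Stat5b FPKM in each library, stacked from the upstream-start and internal-start transcripts; middle, percent of Stat5b FPKM given to the internal start; right, log2 of Stat5a FPKM over Stat5b FPKM. The internal-start share is 37.5% to 56.6% in blood and 12.9% to 23.5% in bone marrow, and the 3 lung ratios, -2.40 to -1.98, lie above the other 6.

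Stat6 (chr10:127642986-127660987), the factor of IL-4 and IL-13 signalling, was abundant and did not pass in any comparison on counts with edgeR. It stood at 500, 548 and 646 CPM in bone marrow, 644, 628 and 848 in blood and 452, 532 and 794 in lung, and the 3 tissues overlapped. The log2 fold changes were 0.32 ± 0.25, -0.25 ± 0.25 and 0.07 ± 0.25 for blood against bone marrow, lung against blood and lung against bone marrow (adjusted p of 0.402, 0.494 and 0.841). The 95% interval of the last ran from -0.42 to 0.56, which leaves room for differences within that range. On the deposited FPKM scale the tissues were separate, at 119 to 128 in bone marrow, 137 to 159 in lung and 177 to 225 in blood. With limma on log2(FPKM + 0.1) Stat6 passed in blood against bone marrow at 0.68 (adjusted p = 0.00292) and in lung against blood at -0.41 (adjusted p = 0.023).

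Socs3 (chr11:117966087-117969366), the inhibitor induced by Stat3 that restrains the G-CSF receptor and the IL-6 family receptors, had the clearest difference between blood and bone marrow. It stood at 112, 150 and 158 CPM in bone marrow, 678, 650 and 1024 in blood and 353, 410 and 504 in lung. The 3 tissues formed separate bands, with blood highest, lung between and bone marrow lowest. It was 5.61-fold higher in blood than in bone marrow (log2 fold change 2.49 ± 0.26, adjusted p = 0.000279) and 3.02-fold higher in lung than in bone marrow (1.59 ± 0.25, adjusted p = 0.00123). Both calls held without any 1 library and with lung replicate 3 as the only lung library.

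In lung against blood Socs3 was lower by 0.89 ± 0.24 on the log2 scale, with an adjusted p of 0.0242. That call was lost without blood replicate 1, 2 or 3 (adjusted p of 0.0763, 0.0652 and 0.2) and without lung replicate 1 or 2 (0.0813 and 0.071), with values between -1.04 and -0.62. It was also lost with lung replicate 3 as the only lung library (-0.47, adjusted p = 0.419), with DESeq2 size factors (adjusted p = 0.0835) and on RSEM counts (adjusted p = 0.0519). In the same comparison the transcript of Stat3, the factor that induces Socs3, was higher in lung. That call was also lost without any 1 blood library. No phosphorylation was measured, so the 2 transcript levels do not show how one acts on the other.

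Cish (chr9:107296659-107302784), a SOCS family inhibitor induced by Stat5, was the rarest of the 10 genes in blood and showed the largest fold differences. Its level was 4.29, 3.27 and 3.45 CPM in bone marrow, 1.16, 1.16 and 0.657 in blood and 19.4, 15.4 and 10.2 in lung. No library of one tissue reached another tissue, and the limit that 3 counts set, 0.0521 to 0.0680 CPM in the blood libraries, lay below every value. Cish was 15.1-fold higher in lung than in blood (log2 fold change 3.91 ± 0.35, adjusted p = 0.000242) and 4.08-fold higher than in bone marrow (2.03 ± 0.32, adjusted p = 0.00124). It was 3.69-fold lower in blood than in bone marrow (-1.88 ± 0.32, adjusted p = 0.00413), a call that limma-voom did not make at the same fold change (adjusted p = 0.0517).

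Within lung, Cish was highest in replicate 1 and lowest in replicate 3, the order in which the fibroblast and epithelial marker sums also fall. So do the sums of MHC class II and dendritic markers (2650, 1990 and 673 CPM) and B cell markers (494, 443 and 59.8 CPM). Endothelial markers do as well (105, 79.6 and 34.0 CPM), but the monocyte and macrophage sum does not (3327, 4178 and 3771 CPM). The part of any of these cell types in the lung level of Cish was not tested as a cause. In lung replicate 3 Cish stood at 10.2 CPM, above all 6 libraries of the other tissues. The fibroblast sum of 164 CPM and epithelial sum of 76.2 CPM of that library lay above the blood ranges. They also lay above bone marrow replicates 1 and 2 (121 and 131 CPM, and 13.8 and 19.0 CPM). Only bone marrow replicate 3 was higher, at 270 and 90.5 CPM. The monocyte and macrophage sum of lung replicate 3, 3771 CPM, also lay above all 6, and Nr4a1 alone gave 3001 CPM of it. The MHC class II sum of lung replicate 3, 673 CPM, lay above all bone marrow libraries. With that library as the only one of lung, Cish was higher by 3.54 against blood (adjusted p = 0.0011), under the assumption that it varies like the other groups. The Stat5 genes that induce Cish were lower in lung, and over the 9 libraries the log2 level of Cish had a Pearson r of -0.96 with Stat5b and -0.94 with Stat5a. These correlations follow the 3 tissue bands and the shared scaling of the libraries, and are given as a description.

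Socs1 (chr16:10783809-10785536), the interferon-induced inhibitor that binds the Janus kinases directly, was scarce and even. It stood at 5.27, 6.74 and 7.08 CPM in bone marrow, 10.9, 5.13 and 8.47 in blood and 7.21, 5.76 and 7.82 in lung. Blood held both the highest and the lowest library in CPM. In FPKM every blood library (4.80 to 8.75) lay above every bone marrow library (3.72 to 4.61). With limma on log2(FPKM + 0.1) that comparison did not pass (0.64, adjusted p = 0.0847). The log2 fold changes were 0.36 ± 0.29, -0.24 ± 0.29 and 0.12 ± 0.29 in the order used above (adjusted p of 0.426, 0.586 and 0.763), with 95% intervals that together run from -0.81 to 0.93. The 3 SOCS family genes therefore showed 3 patterns: Socs3 high in blood, Cish low in blood and high in lung, and Socs1 without a difference that passed.

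Pim1 (chr17:29491045-29495459), a STAT-induced serine and threonine kinase, was the most abundant of the 10 genes per length, as given further on, and was highest in lung. It stood at 938, 832 and 938 CPM in bone marrow, 1600, 1574 and 813 in blood and 3320, 3169 and 4476 in lung. The lung libraries lay above all others, and blood replicate 3 fell below the bone marrow libraries while the other two blood libraries lay above them. Pim1 was 2.75-fold higher in lung than in blood (log2 fold change 1.46 ± 0.29, adjusted p = 0.00692) and 4.05-fold higher than in bone marrow (2.02 ± 0.30, adjusted p = 0.000923). Blood against bone marrow gave 0.56 ± 0.29 (adjusted p = 0.209), and 0.87 without blood replicate 3 (adjusted p = 0.126). With limma that comparison gave 0.86 on log2(FPKM + 0.1) (adjusted p = 0.0473) and 0.86 on log2(FPKM + 1) (adjusted p = 0.0524). Both lung calls held without any 1 library. They also held with lung replicate 3 as the only lung library, at 1.94 against blood (adjusted p = 0.00914).

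Compared per length, on the deposited FPKM scale, the order of the 10 genes changed between tissues. In bone marrow it ran Pim1 (435), Jak1 (136), Stat6 (125), Stat3 (94.5), Stat5b (52.5), Socs3 (43.1), Jak2 (17.9), Stat5a (7.93), Socs1 (4.17) and Cish (1.07), as mean FPKM over 3 libraries, and no 2 neighbours in the order overlapped. In blood Socs3 moved from the sixth place to the second at 309 FPKM, behind Pim1 at 836, and Cish stayed last at 0.363, again without overlap between neighbours. In lung Pim1 reached 2040 FPKM, Stat3 was second at 197, and Socs3 (152) and Stat6 (150) could not be separated. Lower in that order, Jak2 (35.2) overlapped Stat5b (27.1), and Socs1 (5.35) overlapped both Stat5a (6.25) and Cish (5.34), so Cish was no longer set apart at the bottom. FPKM divides by the whole library, while CPM here is rescaled between libraries, so libraries can rank differently on the 2 scales. Pim1 was highest in lung replicate 3 in CPM and lowest of the lung libraries in FPKM, at 2176, 1996 and 1948.

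**Figure D4:**
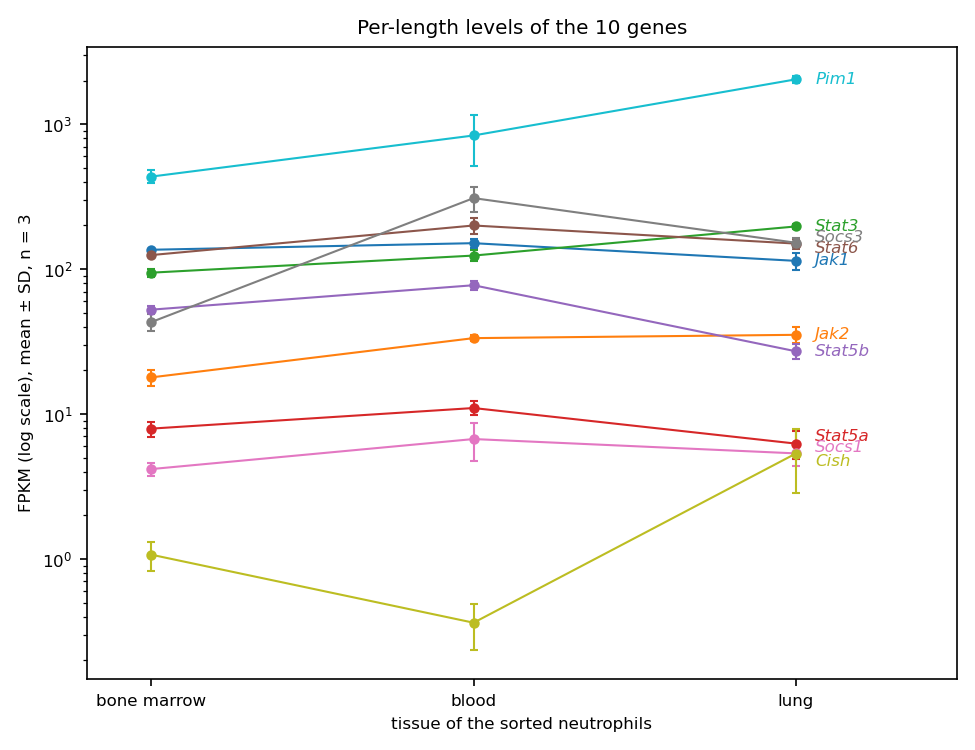
Mean FPKM of each gene with its SD (n = 3, log axis) in neutrophils of the 3 tissues. Pim1 stays highest throughout, Socs3 peaks in blood at 309, and Cish runs from 1.07 through 0.363 to 5.34, where it meets Socs1 and Stat5a.

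Other genes followed the members closely over the 9 libraries, as a description of log2(CPM + 1) with no test, since all values share the tissue bands, the depth and the scaling. Nearest to Stat3 were Syk (Pearson r 0.992) and the GM-CSF receptor chain Csf2rb (0.986). Csf2rb averaged 622, 664 and 1307 CPM in bone marrow, blood and lung. Nearest to Stat5b was Mtfr1 (0.997) and to Stat5a Tmed8 (0.995), and the Stat5 genes themselves had an r of 0.98 with each other. Socs3 was followed by Aim2 (0.986), Sbno2 (0.981) and Tnip2 (0.981), and Cish by Lmna (0.952), Ncaph2 (0.951) and the chemokine gene Cxcl1 (0.950). Pim1 was followed by Marcksl1 (0.982), which averaged 294, 396 and 1863 CPM. Jak1 was nearest to Mark3 (0.981), Jak2 to Nars (0.965) and Stat6 to Pde1b (0.992). Socs1 had no close companion, its best being Ksr1 (0.794).

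The rest of the family was read from a list of 13 further JAK, STAT, SOCS and PIM genes, all tested. In blood against bone marrow 4 were higher (Jak3, Socs5, Socs7 and Stat2) and 0 lower by edgeR, against 8.34% and 13.1% of all genes, with a median log2 fold change of 0.26 against -0.05. At an unadjusted p under 0.05 edgeR had 2 lower, and DESeq2 called 1. Jak3, the kinase of the common gamma chain, was at 24.0, 23.5 and 27.4 CPM in bone marrow, 54.5, 66.2 and 70.1 in blood and 48.9, 50.7 and 45.8 in lung. Its log2 fold change was 1.35 ± 0.13 in blood against bone marrow (adjusted p = 0.000216) and 0.95 ± 0.13 in lung against bone marrow (adjusted p = 0.000626). In lung against blood 2 were higher (Socs2 and Stat4) and 2 lower, and in lung against bone marrow 4 were higher and 1 lower. Of all genes 13.2% were higher and 15.7% lower in the first and 15.6% and 22.6% in the second, so these counts lie near the general rate or rest on few genes. The list's medians there were -0.14 and 0.43, against 0.05 and 0.06, and without blood replicate 3 no gene of the list was lower by edgeR in either lung comparison (2 and 0 at an unadjusted p under 0.05, and 2 and 0 called by DESeq2 on all libraries).

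Stat4, the IL-12 factor, was 1.01 ± 0.23 higher in lung than in blood (adjusted p = 0.011). That call was lost without blood replicate 1 or 2 (adjusted p of 0.0825 and 0.0919).

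Several other brakes on the relay were lower in lung. Of 12 phosphatases, PIAS proteins and adaptors, 1 was higher and 5 lower in lung against blood. In lung against bone marrow 2 were higher and 6 lower. Of all genes 13.2% were higher and 15.7% lower in the first comparison, and 15.6% and 22.6% in the second. The medians were -0.56 and -0.61 against 0.05 and 0.06 over all genes. In blood against bone marrow 1 gene passed in each direction, against 8.34% of all genes higher and 13.1% lower (medians 0.07 and -0.05). The number lower was 1 against blood and 2 against bone marrow with lung replicate 3 as the only lung library, and 8 and 8 without it. Cbl, the ubiquitin ligase that takes activated receptors out of service, was at 326, 311 and 222 CPM in bone marrow, 254, 218 and 245 in blood and 46.1, 61.9 and 105 in lung (log2 fold change in lung against blood -1.75 ± 0.30, adjusted p = 0.00332). Pias3, the inhibitor of Stat3, was lower in lung than in blood by 1.61 ± 0.17 on the log2 scale (adjusted p = 0.000503), and Usp18, which restrains the interferon receptor, by 1.66 ± 0.31 (adjusted p = 0.00498). Ptpn2, a phosphatase of Janus kinases and STATs, went the other way, from 30.8, 27.4 and 26.7 CPM in blood to 70.2, 69.6 and 103 in lung (1.51 ± 0.17, adjusted p = 0.000582). With lung replicate 3 alone, Cbl and Usp18 did not pass against blood (-1.01 and -1.07, adjusted p of 0.0582 and 0.0893).

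Several receptors that use Janus kinases were higher in lung. Of 28 tested, 12 were higher and 3 lower in lung against blood, and 12 higher and 2 lower in lung against bone marrow. Of all genes 13.2% were higher and 15.7% lower in the first comparison, and 15.6% and 22.6% in the second. The 12 genes higher against blood include some at trace levels, named here after their values were seen. Osmr stood at 4.47, 2.23 and 0.348 CPM in lung, Ghr at 3.80, 2.25 and 0.447, and Epor at a mean of 0.296, with Osmr and Ghr lowest in lung replicate 3, as the fibroblast marker sum is. The number higher was 9 and 12 with lung replicate 3 as the only lung library. Without blood replicate 3 the counts were 8 and 12. The medians were 0.87 and 1.00, against 0.05 and 0.06 over all genes. Blood against bone marrow had 5 higher, 3 lower and a median of 0.26, against 8.34%, 13.1% and -0.05 over all genes. Il10ra, the ligand-binding chain for IL-10, was at 96.1, 87.9 and 119 CPM in bone marrow, 286, 205 and 188 in blood and 658, 691 and 1112 in lung, with separate bands for all 3 tissues. Its log2 fold change was 1.16 ± 0.26 in blood against bone marrow (adjusted p = 0.0143) and 1.86 ± 0.27 in lung against blood (adjusted p = 0.00168). The first call was lost without bone marrow replicate 1 or 2 (adjusted p of 0.0671 and 0.0839) and without blood replicate 1, 2 or 3 (0.091, 0.0567 and 0.0501). Il2rg, the common gamma chain, was 1.90 ± 0.39 higher in lung than in bone marrow (adjusted p = 0.00505). Lifr differed already in blood, at 2.04 ± 0.31 against bone marrow (adjusted p = 0.00236). Il3ra was lowest in blood, at 2.92, 3.60 and 2.79 CPM, against 13.2, 11.9 and 14.9 in bone marrow (-2.10 ± 0.23, adjusted p = 0.000389).

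Of the 23 ligand genes of those receptors only 11 had enough counts to be tested. None passed in blood against bone marrow with edgeR, against 21.4% of all genes. There 2 had an unadjusted p under 0.05 and DESeq2 called 2, both lower in blood. In each lung comparison 5 were higher, against 13.2% and 15.6% of all genes, and none was lower by edgeR, at an unadjusted p under 0.05 or by DESeq2, which called 8 and 9 as higher. Only 3 were higher against blood and 2 against bone marrow when lung replicate 3 stood for lung alone. Csf3, which encodes G-CSF, was at 0 in all blood libraries and at 17.0, 19.3 and 34.2 CPM in lung, at least 380-fold higher against the level that 3 counts give per blood library. Il23a was at 3.18, 0.956 and 0 CPM in blood and 22.8, 33.5 and 42.2 in lung (log2 fold change 4.57 ± 1.21, adjusted p = 0.0214), a call lost without blood replicate 2 or lung replicate 2 (adjusted p of 0.0796 and 0.0515) and with lung replicate 3 as the only lung library (0.0786). Both ligand genes were highest in lung replicate 3. Lif was at 3.88, 0.973 and 0.159 CPM in blood and 20.6, 14.1 and 23.6 in lung (3.54 ± 0.86, adjusted p = 0.0155), a call lost without blood replicate 2 (adjusted p = 0.0628). Il12a reached 7.15, 5.62 and 12.1 CPM in lung (2.58 ± 0.70 against blood, adjusted p = 0.0229) and did not pass without blood replicate 1 (adjusted p = 0.058).

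A list of 25 further textbook STAT targets had 24 tested genes. In blood against bone marrow 5 were higher and 5 lower (median -0.18), in lung against blood 14 were higher and 4 lower (median 1.17), and in lung against bone marrow 10 were higher and 3 lower (median 0.57). The shares of all genes were 8.34% higher and 13.1% lower, 13.2% and 15.7%, and 15.6% and 22.6% in these comparisons, with medians of -0.05, 0.05 and 0.06. The count higher against blood was 8 with lung replicate 3 as the only lung library and 7 without blood replicate 3. Icam1, an adhesion receptor, was at 14.9, 9.47 and 8.92 CPM in bone marrow, 44.7, 33.9 and 37.0 in blood and 325, 475 and 688 in lung. Its log2 fold change in lung against blood was 3.69 ± 0.33 (adjusted p = 0.000242), it was highest in lung replicate 3, and the gene is also a target of other pathways. Saa3, an acute-phase gene, reached 6.10, 4.25 and 11.7 CPM in lung from at most 0.460 elsewhere (5.67 ± 0.98 against blood, adjusted p = 0.00362).

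Chil3 and Retnla, targets of Stat6 in macrophages, behaved less evenly. Chil3 reached 787 and 926 CPM in the first pair of lung libraries but 71.3 CPM in lung replicate 3, inside the blood range of 38.1 to 94.5, so its 3.01 ± 0.79 in lung against blood (adjusted p = 0.0214) became 0.14 with replicate 3 alone. The call against blood was also lost without any 1 blood library or lung replicate 1 or 2 (adjusted p between 0.0501 and 0.0739). In bone marrow Chil3 stood at 934, 800 and 1082 CPM, and blood was lower than bone marrow (-3.66 ± 0.82, edgeR adjusted p = 0.0137). Lung against bone marrow did not pass (-0.66 ± 0.74, adjusted p = 0.506). Retnla was at 0 in all blood libraries and at 18.7, 12.1 and 9.71 CPM in lung, at least 218-fold higher on the same floor. In these lists the part of the other cell types whose markers are given above was not tested.

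The members' fold changes were recomputed under every alternative scaling, filter, tool and set of libraries. Socs3 against bone marrow, Cish in both lung comparisons, Pim1 in both lung comparisons and Stat5b in lung against blood passed in all of them.

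**Figure D5:**
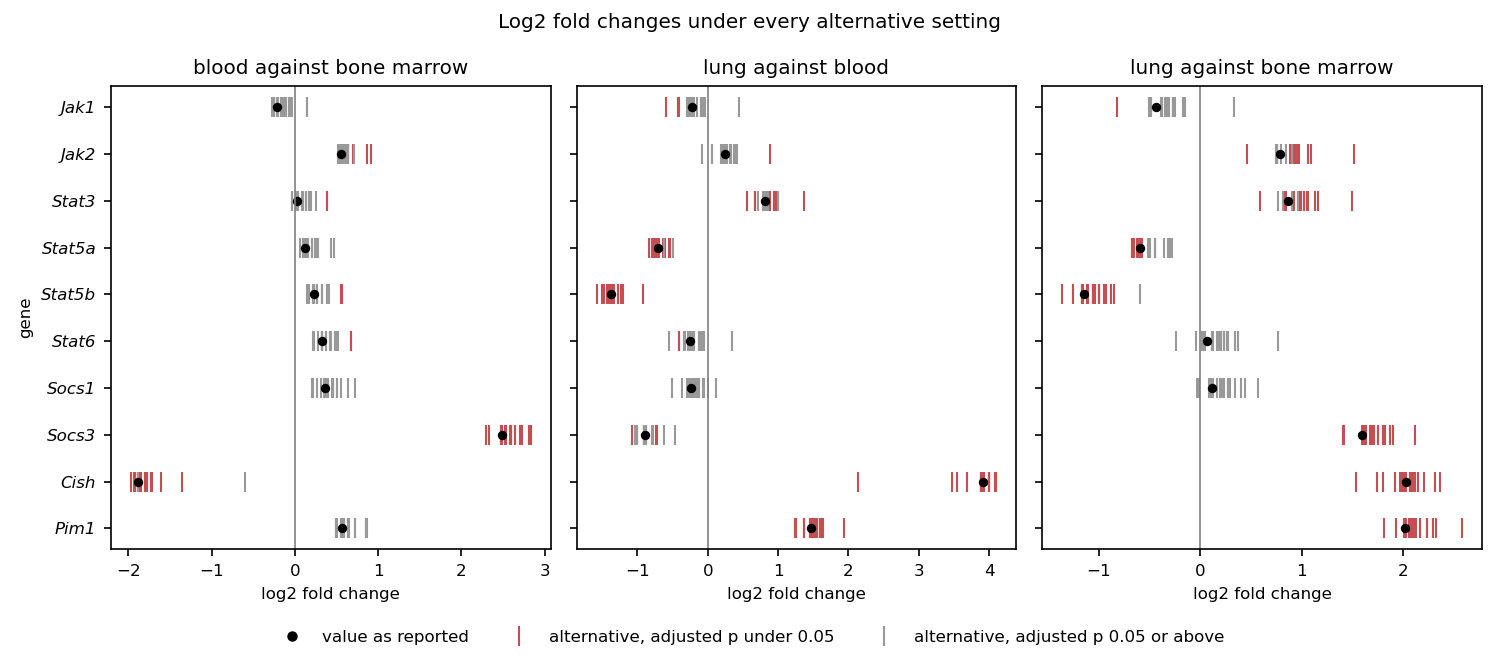
Log2 fold change of each gene as reported (black point) and under each alternative setting (ticks, red where the adjusted p was under 0.05). Ticks of Socs3 against bone marrow, and of Cish and Pim1 in both lung comparisons, are red throughout, while those of Stat3, Stat5a and Jak2 are red under some settings and grey under others.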

How the data were processed

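The 10 genes and all gene lists were chosen with earlier results of these data known. Per the labels' protocols, a FACS Aria III sorted the neutrophils, and a TruSeq mRNA kit, named both as standard and as stranded, gave the polyA libraries. The strand used in counting is not given in the sources used here, so reads of overlapping antisense genes cannot be told apart. The submitters' processing notes name mm10, Bowtie2, STAR, StringTie 2.1.3b, RSEM and DESeq2, without their roles.

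The deposited series table lists 36780 RefSeq transcripts with a count and an FPKM per library, per the file headers. The counts, whole numbers and not normalized by the authors, were summed by gene, as was the deposited FPKM, whose values equalled count over transcript length and a constant per library within a relative deviation of 0.0096. Separate deposited files repeat this table for the 3 bone marrow libraries. For blood and lung they hold RSEM expected counts and TPM for 55450 genes, per the file headers, and were used as an alternative, with expected counts rounded. The columns are numbered 1 higher than the titles, whose replicate numbers are used here, and 0 columns were left without a sample.

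Genes were kept by filterByExpr, scaled by TMM and fitted over all 9 libraries with edgeR 4.0.16 (robust quasi-likelihood, group means, R 4.3.3). Adjusted p is Benjamini-Hochberg over 13510 genes, two-sided, with a threshold of 0.05, and the common biological coefficient of variation was 0.448. SE was taken from the F statistic as the size of the log2 fold change over its square root. Levels are TMM-scaled CPM, mean and SD over 3 libraries. The labels call the replicates biological but name no animals, and p-values measure the spread between these samples. Intervals and the floor of 3 counts cover what the fit or counting error gives, no more. Stat5 ratios were tested by exact permutation. Alternatives were DESeq2 1.42.0, limma 3.58.1 (voom, and log2 of FPKM + 0.1 or + 1), other scalings and filters, the replicate number as a term, RSEM counts and leaving out each library; lung replicate 3 as the only lung library was added after seeing the data. The fit was tested on simulated counts. Likeness used log2(CPM + 1) among tested genes of at least 20 CPM without predicted or ribosomal protein genes, and list examples are the up to 4 largest passing changes of at least 5 CPM in the higher tissue. Of these lists the text gives 2 to 4 genes. Other genes are named only as the genes that a small count holds. Some genes that these rules would name are not reported here. Sequences are from RefSeq on GRCm38.p6, read with Python 3.11.15, and 12 of 13 windows could be matched in direction to a transcript. The exception was the Stat5b internal start shown above, which matched no Stat5b transcript of the GENCODE set searched, in either direction.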

Additional observations from a re-analysis of the deposited data

How the results depend on the processing

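Leaving out 1 library, the number of all genes passing ranged widely: 1236 to 3965 against 2892 for blood against bone marrow, 1922 to 5852 against 3900 for lung against blood and 3258 to 6984 against 5158 for lung against bone marrow. Of the 10 genes, leaving out 1 library left 3 to 7 passing in lung against blood (3 without blood replicate 3) and 4 to 8 in lung against bone marrow (4 without blood replicate 1). With lung replicate 3 as the only lung library, 2033 genes passed against blood and 3120 against bone marrow, and 5 and 5 of the 10 genes. In blood against bone marrow 1 of the 10 passed with limma-voom (Cish lost), 7 with limma on log2(FPKM + 0.1) and 5 with log2(FPKM + 1), where Cish was -0.60 (adjusted p = 0.185). Scaling moved the median of all genes in lung against bone marrow from 0.06 to 0.20 with DESeq2 size factors and 0.38 with upper-quartile scaling, and the share of higher among called genes from 40.9% to 52.0% and 59.3%. In blood against bone marrow that share was 39.0%, 52.6% with upper-quartile scaling and 67.1% with FPKM + 0.1, and in lung against blood 45.6%, 56.9% with DESeq2 size factors and 34.7% with FPKM + 0.1. Signs turned only for values that did not pass: with FPKM, in blood against bone marrow, Jak1 (0.15 and 0.15), Cbl (0.12 and 0.11) and Ptpn2 (0.22 and 0.21). With 1 library left out, values there ranged over zero for Stat3 (-0.04 to 0.25), Pias3 (-0.11 to 0.21) and Il23a (-2.01 to 0.05), as they did for Jak2 (-0.08 to 0.40) and Lifr (-0.19 to 0.04) in lung against blood and for Stat6 (-0.24 to 0.23) and Socs1 (-0.03 to 0.23) in lung against bone marrow. With lung replicate 3 alone, Jak1 (0.45 against blood, 0.33 against bone marrow), Stat6 (0.34), Socs1 (0.11) and Socs7 (0.01) turned against blood. Lifr in lung against blood was -0.07 and turned with DESeq2 size factors, upper-quartile scaling, a 5 CPM filter, DESeq2 and FPKM (0.02, 0.09, 0.11, 0.02, and 0.26 and 0.17). Over all alternatives of the 10 genes, 534 values kept direction and call, 42 lost and 21 gained a call and 13 changed sign; the cause was not tested. Stat5b in lung against bone marrow lost its call only with lung replicate 3 alone (-0.59). Same-numbered libraries deviated together at correlations of 0.049 to 0.518, of which 8 of 9 were above 0.1, against -0.504 to 0.453 for other pairs, and in 13 of 18 cases a library matched its own number best. That is a hint from the data of something shared by number, but 1 pair was under the 0.1 asked of every pair and the labels name nothing shared, so the fit without the block is the one reported. With the replicate block 3990, 4751 and 5973 genes passed in the 3 comparisons, and 2, 6 and 7 of the 10 genes, with no call among them changed; of the other named genes, Retnla lost its calls against bone marrow (adjusted p of 0.149 in blood and 0.0898 in lung), Jak3 gained one in lung against blood (0.043) and Stat4 one in blood against bone marrow (0.0157). All 10 genes lay above 3 counts in every library.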

Other observations

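Of the other members, Jak2, Stat5a, Cish and Socs1 were listed with a pair of transcripts each, whose shares overlapped between the tissues. The rarer Jak2 transcript took 10.3% ± 10.9 of the gene's FPKM in bone marrow, 7.45% ± 8.78 in blood and 9.75% ± 4.63 in lung (SD, n = 3), an SD as large as the share in bone marrow and blood. The Stat5a transcript that starts inside the other took 29.2% ± 9.77, 27.4% ± 9.26 and 33.5% ± 10.8, in contrast to the Stat5b shares given above. For Cish the first listed transcript took 46.1% ± 12.2, 31.6% ± 13.3 and 38.2% ± 10.2, and for Socs1 it took 47.7% to 54.2%, 53.7% to 72.5% and 47.0% to 60.9%. None of these shares was tested.

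Among the members themselves, Stat3 and Pim1 varied together over the 9 libraries (Pearson r 0.81), as did Jak2 with Stat3 and with Pim1 (0.73 and 0.73), whereas Stat5b ran against Pim1 (-0.85). Stat6 varied most with Jak1 (0.64) and Socs1 with none above 0.46. These values share depth, scaling and the 3 tissue bands.

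The count source mattered unevenly for single genes. Over all genes, the blood and lung libraries held 42045548 to 50943078 counts in the series table and 22196650 to 27061368 by RSEM. In the blood and lung libraries the series table held at most 2.04 times the RSEM count for Socs3, but 1.60 to 1.81 times for Pim1 and, for Cish, only 1.21 times in blood replicate 3, the lowest of all. On RSEM counts, lung against blood gave 3.91 ± 0.30 for Cish (adjusted p = 0.00174, edgeR) and 1.55 ± 0.36 for Pim1 (adjusted p = 0.0213).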
